A study of Mus musculus with 16 samples.

Results

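The blood-brain barrier is formed by brain endothelial cells, which are sealed by tight junctions, so that what enters or leaves the brain is set largely by transporters in their membranes. The transporters described here were chosen by gene symbol. They are 9 of the 28683 genes listed over the libraries. The ATP-driven pumps that return drugs to the blood are Abcb1a (P-glycoprotein), Abcg2 (breast cancer resistance protein) and Abcc4 (a multidrug resistance protein). Slco1a4 carries organic anions and Slc22a8 is an organic anion transporter known for clearing organic acids from brain. Slc7a5 and Slc3a2 are the light and heavy chain of the carrier for large neutral amino acids, Slc38a5 carries glutamine and related amino acids, and Mfsd2a carries lysophosphatidylcholine with docosahexaenoic acid and restrains transcytosis.

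Single cells of the hypothalamus and preoptic area of female mice were profiled by Drop-seq, in which beads tag transcripts by cell (the barcode) and by molecule (the unique molecular identifier, UMI). Each of the 16 libraries came from 1 mouse on a mixed CD-1;129P2 background. The groups were WT oil (n = 3), WT tamoxifen (n = 5), Esr1 cKO oil (n = 4) and Esr1 cKO tamoxifen (n = 4). WT mice were Cre-negative littermates, and Esr1 cKO mice carried floxed Esr1, the gene of estrogen receptor alpha, with a Cre transgene driven by Nkx2-1, a factor of the medial basal hypothalamus. Adult mice received daily subcutaneous injections of tamoxifen in corn oil with ethanol or of the vehicle alone, so all groups were injected. The Cre transgene acts in the Nkx2-1 lineage, and its activity in endothelial cells was not tested.

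The libraries held 2634253 to 8038158 UMIs, and 55675 cells passed the filter, with a median of 563 to 819 UMIs per cell in a library. Clusters were named from marker lists and are called by those names below, endothelial-like cells as endothelial cells. Endothelial cells numbered 7159, or 8.84% to 17.9% of a library, with a median of 732 UMIs, and 10 of 10 endothelial markers were higher there than in the other cells, as were 10 of the 12 mural markers. The libraries WT tamoxifen replicates 4 and 5, Esr1 cKO oil replicate 4 and Esr1 cKO tamoxifen replicate 4 shared 303 to 359 cell barcodes in each of their 6 pairs, and the other 114 pairs shared 0 to 42. Removing the 1717 cells of any shared barcode, 322 of them endothelial, is 1 of the alternatives. WT oil replicate 3 and Esr1 cKO tamoxifen replicate 3 had been cut at 100 genes per barcode before deposit and the others at 20. Esr1 was detected in neurons of every library, at 41.5 to 58.9 CPM in Esr1 cKO oil and 44.1 to 86.4 CPM in WT oil mice. Under tamoxifen it was at 17.1 to 73.8 CPM in Esr1 cKO and 57.5 to 74.5 CPM in WT mice. In endothelial cells, with 0 to 34 Esr1 UMIs per library, it was at 11.3 to 32.0 CPM in Esr1 cKO oil and 0 to 97.0 CPM in WT oil mice. Under tamoxifen the endothelial level was 4.88 to 53.7 CPM in Esr1 cKO and 14.8 to 57.2 CPM in WT mice. The Esr1 levels of the genotypes overlapped, and where the 3' tags lie relative to the deleted exon was not examined. These levels therefore do not check the deletion. The paper also detected no significant drop of Esr1 transcripts, but it reported loss of estrogen receptor alpha staining in several areas of this tissue.

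The study gave a ligand of the estrogen receptor, and estrogen response elements are built of copies of GGTCA. The promoters of Slco1a4, at a mean of no more than 26 CPM in any other named cell type than endothelial cells, and of Mfsd2a, which glia share, are therefore shown. They are given as the 250 bases before the RefSeq start, 5' to 3' on the strand of the gene (RefSeq, GRCm38.p6). Capitals mark GGTCA or its complement TGACC, and in Mfsd2a also CTTTGA, the core of Lef1 and Tcf7 sites, which act in the Wnt signaling of barrier formation.
Slco1a4, chr6:141856221-141856470, minus strand: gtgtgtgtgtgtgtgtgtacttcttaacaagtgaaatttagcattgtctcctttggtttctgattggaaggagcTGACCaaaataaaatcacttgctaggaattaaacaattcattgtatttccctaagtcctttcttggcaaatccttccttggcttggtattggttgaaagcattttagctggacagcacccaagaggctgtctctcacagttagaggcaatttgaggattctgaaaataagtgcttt
Mfsd2a, chr4:122961189-122961438, minus strand: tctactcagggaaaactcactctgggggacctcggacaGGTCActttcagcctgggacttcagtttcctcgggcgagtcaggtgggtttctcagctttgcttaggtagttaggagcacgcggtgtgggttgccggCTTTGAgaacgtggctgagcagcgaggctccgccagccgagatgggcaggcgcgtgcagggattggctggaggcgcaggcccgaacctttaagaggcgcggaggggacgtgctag
Each motif was searched on both strands, and none of them holds another. GGTCA stood in 7 of the 11 member promoters listed by RefSeq and in 35.2% of 32851 promoters of this length. Abcg2 and Abcc4 have more than 1 of the 11, and the 7 belonged to Abcc4, Abcg2, Mfsd2a, Slc38a5, Slc3a2 and Slco1a4. CTTTGA stood in 3 of the 11 and in 13.8%, and CCGGAA, the core of ETS factor sites, in 1 of the 11, that of Slc3a2, and in 12%. The Abcb1a promoter, which holds CTTTGA, is at chr5:8566841-8567090, outside the span of Abcb1a given below. A match of these letters is a description and not a site. No RefSeq promoter was used for Slc7a5.

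In GENCODE vM21 on GRCm38, Abcb1a spans chr5:8660077-8748575 on the plus strand. Abcg2 spans chr6:58584523-58695676 (plus) and Slco1a4 chr6:141805440-141856199 (minus). Abcc4 spans chr14:118482692-118706219 (minus), where Gm23302 overlaps it on the plus strand, and Slc7a5 spans chr8:121881150-121907694 (minus), where Gm20388 overlaps it on the plus strand. Whether strand was used in counting is not given in the sources used here. Slc22a8, chr19:8591254-8611835 (plus), and Slc3a2, chr19:8706882-8723369 (minus), are 95 kb apart. Mfsd2a spans chr4:122946850-122961188 (minus) and Slc38a5 chrX:8271133-8280179 (plus). Reads of Abcb1a could be split with its near copy Abcb1b, and those of Slco1a4 with Slco1a5 and Slco1a6. Slc22a6, a related gene of the family of Slc22a8, is counted with these near copies below. Its group means in endothelial cells were 0.410 to 2.03 CPM. Whether reads of Slc22a8 were split with it was not tested.

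Among the cell types, the drug pumps and organic anion carriers had their highest mean in endothelial cells. They differed in how far they were confined there. Levels are given as CPM, the UMIs of a gene scaled to the UMIs of the cell type in that library, as the mean and SD over the 16 libraries. Drop-seq counts 3' tags, so levels of different genes are not ranked against each other. The members were chosen as known barrier genes, so the comparison of cell types is a description without a test. Slco1a4 was at 1839 ± 246 CPM in endothelial cells and at 6.8 to 26 CPM in the other 8 types, a log2 ratio of endothelial to all other cells of 7.69 ± 0.39 (SD). In 71.0% of endothelial cells at least 1 Slco1a4 UMI was found, against 0.545% of astrocytes, whose median depth was 482 UMIs. Slc38a5 was at 161 ± 41 CPM in endothelial cells and at most 12 CPM in the other types, a log2 ratio of 6.47. Slc7a5 was at 262 ± 47 CPM in endothelial cells and at most 19 CPM in the other types, a log2 ratio of 4.63. For Slco1a4, Slc7a5 and Slc38a5 the next type lay outside the summed SDs of both.

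In every library each of the 9 members was higher in endothelial cells than in the rest of the cells. The log2 ratio was 6.37 for Abcb1a, 5.25 for Slc22a8, 4.66 for Abcg2, 2.99 for Abcc4, 2.31 for Mfsd2a and 1.77 for Slc3a2. As a measure of free RNA, endothelial markers stood at a median of 0.724% (polydendrocytes) to 3.02% (mural cells) of their endothelial level in the other types. Slco1a4 was at 0.370% of its endothelial level in neurons, 0.540% in astrocytes and 1.01% in microglia, under the marker medians of 1.36%, 0.906% and 1.5% there. The markers ranged from 0.309% to 4.12% in neurons, 0.432% to 2.15% in astrocytes and 0.511% to 6.05% in microglia. Abcb1a was at 0.470% in neurons and 0.897% in astrocytes, also under these medians, and at 1.90% in microglia, above the median but within the range. The part of free RNA in these UMIs was not tested. Single cells were shallow. Of 7159 endothelial cells, 24 held UMIs of all 9 members and 509 of none.

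**Figure D1:**
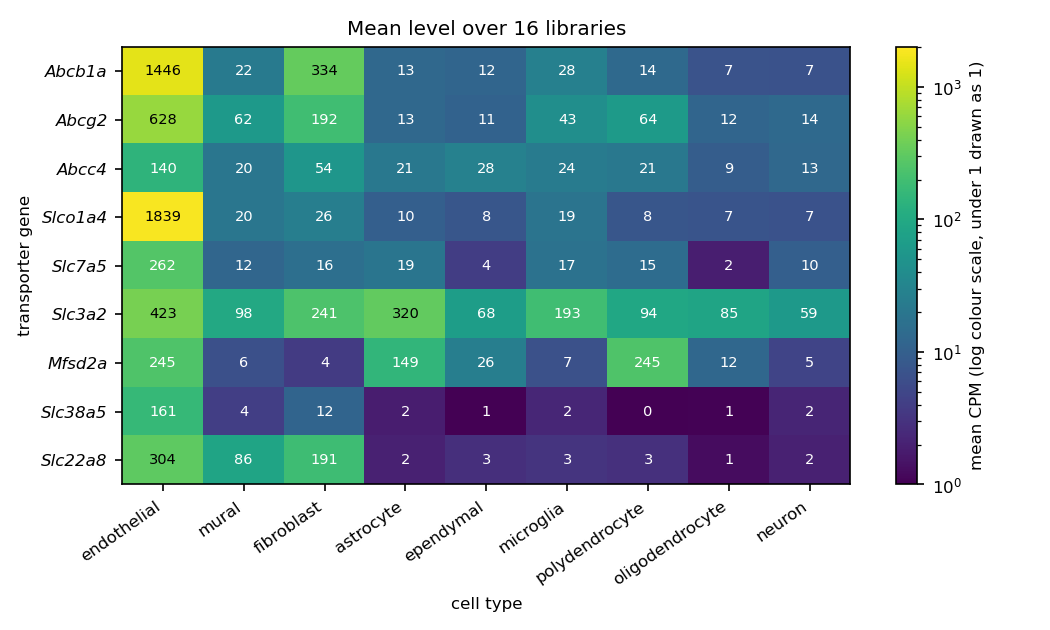
Mean level of each transporter (rows) in each cell type (columns), in CPM over 16 libraries, printed in each cell and coloured on a log scale. All 9 rows have their highest mean in the endothelial column, while Slc3a2 is at 320 CPM in astrocytes and Mfsd2a at 245 CPM in polydendrocytes.

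Mfsd2a and Slc3a2 were shared with glia. Mfsd2a was at 245 ± 44 CPM in endothelial cells, 245 ± 47 CPM in polydendrocytes, the oligodendrocyte precursors, and 149 ± 49 CPM in astrocytes, and these neighbours in the order lay within their summed SDs. Ependymal cells followed at 26 CPM, and the other types were at 3.8 to 12.5 CPM. At least 1 Mfsd2a UMI was found in 20.4% of endothelial cells, 18.1% of polydendrocytes and 7.72% of astrocytes, against 0.842% of the deeper neurons. Slc3a2 was at 423 ± 78 CPM in endothelial cells, 320 ± 70 CPM in astrocytes, 241 ± 80 CPM in fibroblasts and 193 ± 30 CPM in microglia, again within the summed SDs of neighbours. Its partner Slc7a5 stood at 19 CPM in astrocytes and 16 CPM in fibroblasts, 7.37% and 6.17% of its endothelial level. Slc3a2 also pairs with other light chains, which are not described here. Abcc4 had the lowest contrast of the pumps, with 140 ± 32 CPM in endothelial cells, 54 ± 28 CPM in fibroblasts and 9.5 to 28 CPM in the others.

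Abcb1a, Abcg2 and Slc22a8 were also found in the cells named fibroblasts by the marker lists, at 334 ± 153, 192 ± 79 and 191 ± 103 CPM. For Slc22a8 this lay within the summed SDs of the 304 ± 41 CPM in endothelial cells. A finer clustering split these cells, and the members lay in different parts. Members and their near copies were left out of the genes used to cluster, so they could not form the split, but the clusters and genes shown were chosen after their values were seen and no test is given. In a cluster of 237 cells led by Prg4 and Slc47a1, with 355 CPM of Cdh1, the E-cadherin gene, Abcb1a was at 889 ± 243 CPM and Abcg2 at 429 ± 159 CPM (10 libraries with at least 10 such cells). Slco1a4 was at 8.9 CPM there and the endothelial tight junction gene Cldn5 at 1.6 CPM, against 2292 and 952 CPM in the main endothelial cluster of this clustering. The cluster of 733 cells led by Dcn, Igf2 and Lum, genes of connective tissue, had 30 CPM of Abcb1a and 74 CPM of Abcg2. It had 284.0 ± 165 CPM of Slc22a8, with 289 ± 150 CPM of the related gene Slc22a6. Slc22a6 was at 0.548 CPM in the main endothelial cluster, where Slc22a8 was at 353 ± 64 CPM. Whether the Prg4 cluster is of fibroblasts was not tested.

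Mural cells showed the same division for Slc22a8. It was at 350 ± 176 CPM in the cluster of 857 cells led by Vtn, Kcnj8 and Abcc9, genes of pericytes, and at 2.84 CPM in the cluster of 1511 cells led by Acta2 and Myh11, genes of smooth muscle. In the former its level was within an SD of that in the main endothelial cluster. In the Kcnj8 cluster Slco1a4 was at 34 CPM and Cldn5 at 48 CPM, and their part in the level of Slc22a8 was not tested. The remaining members in that cluster ran from 17.9 CPM for Slc38a5 to 138 CPM for Slc3a2. The Kcnj8 cluster was shallow, with a median of 395 UMIs per cell.

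**Figure D2:**
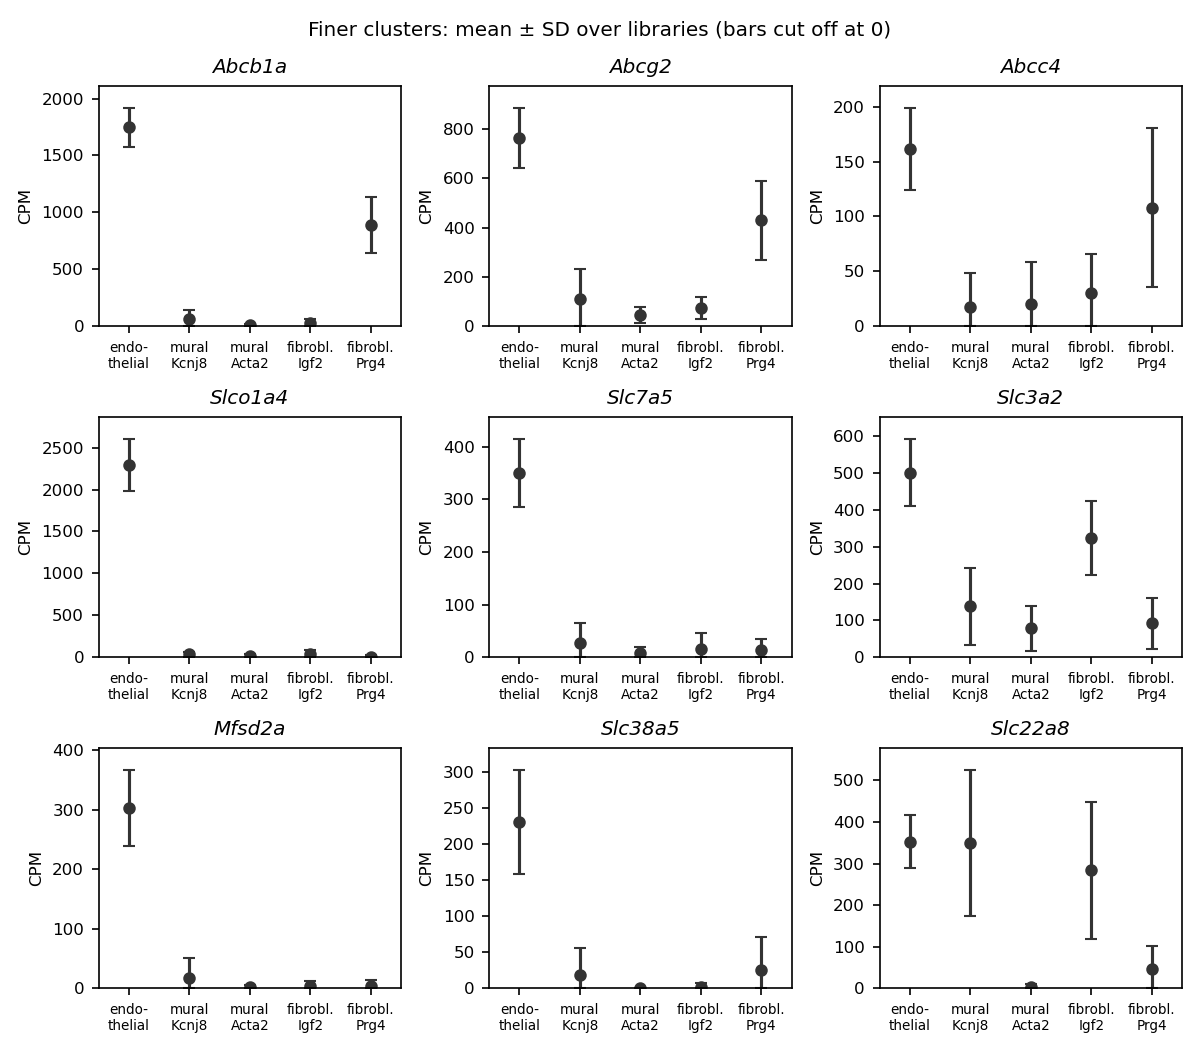
Level in CPM (vertical axis, 1 panel per transporter) in the main endothelial cluster and in mural and fibroblast clusters of the finer clustering, named by a leading gene; points are means over libraries with at least 10 cells and bars SDs. Slc22a8 is high in the Kcnj8 mural (350 CPM) and Igf2 fibroblast (284 CPM) clusters, and Abcb1a (889 CPM) and Abcg2 (429 CPM) in the Prg4 cluster. The Prg4 cluster is labelled fibroblast by its marker-list name only.

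Across the 144 profiles of a cell type in a library, the genes most like each member in Pearson correlation of log2(CPM + 1) were Itm2a for Abcb1a (r = 0.871), Ramp2 for Abcg2 (0.795), Ly6c1 for Slco1a4 (0.830) and Mgp for Slc22a8 (0.863). For Slc38a5 and Slc7a5 the likest were Gm694 (0.780) and Gm9946 (0.700), for Mfsd2a Klhl5 (0.741), for Slc3a2 Cr1l (0.709) and for Abcc4 Sgms1 (0.638). Profiles of 1 library share a preparation, and those of 1 type share a depth and the contrast of types, so these values describe the pattern over types. Among the members Abcb1a and Abcg2 were the most alike (0.809), and Mfsd2a and Slc22a8 the least (-0.075).

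Within the endothelium, Slc38a5, Slc7a5 and Slc22a8 were low in arterial cells, the cells that line arterioles rather than the exchange vessels. Endothelial cells were clustered again without members or near copies. The cluster with 10 of 11 arterial markers held 357 cells (median 1127 UMIs) and the other endothelial cells numbered 6802 (median 720 UMIs). In the 12 libraries with at least 10 arterial cells, 8 of the 9 members were lower in arterial cells in an edgeR quasi-likelihood test with the library as a block, where 16% of the 3800 genes tested were called in either direction. The median log2 fold change was -1.12 over the members and -0.04 over all genes. Both classes come from the same mice, and the genes that formed the clusters were measured in the same cells. A gene could pass the filter on low counts through 1 class alone. In arterial cells Slc38a5, Slc7a5 and Slc22a8 had 2, 26 and 38 UMIs, with 10, 5 and 3 libraries at 0. They passed the filter through the other cells, where they were high, so their calls are a description.

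Slc38a5 was near 0 in the arterial sub-cluster. Its 12 arterial values ran from 0 to 42.4 CPM with a median of 0, and 10 libraries had none, against 129 to 298 CPM (median 163) in the other endothelial cells. Over these libraries, 2 Slc38a5 UMIs lay among 572412 arterial UMIs and 1106 among 6626019 of the others, a ratio 47.8-fold lower (95% counting interval 13.2 to 395). How low it was depended on how arterial cells were chosen. With arterial cells taken instead as those with at least 2 UMIs of arterial markers, the log2 fold change was -1.31 for Slc38a5, -1.49 for Slc7a5 and -1.26 for Slc22a8, each still called by edgeR. By the sub-cluster the fitted log2 fold change of Slc38a5 was -5.43, and it was -6.18 without Esr1 cKO tamoxifen replicate 2 and -6.06 without WT tamoxifen replicate 3, the libraries that held its arterial UMIs. Slc7a5 ran from 0 to 170 CPM (median 22.1) in arterial cells, against 181 to 352 CPM, a log2 fold change of -2.54 (SE 0.25). Slc22a8 ran from 0 to 212 CPM (median 51.2) against 266 to 368 CPM, a log2 fold change of -2.27 (SE 0.22). The classes of these 3 genes did not overlap, as for 1.76% of the genes tested.

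The heavy chain Slc3a2 ran from 70.4 to 424 CPM in arterial and 283 to 523 CPM in other endothelial cells, a log2 fold change of -1.12 (SE 0.15). Mfsd2a had a log2 fold change of -1.12 (SE 0.21) and was lower in 11 of 12 libraries. It had 64 UMIs in arterial cells, with 2 libraries at 0. It too passed the filter through the other cells, so its call is a description. Abcg2 and Slco1a4 fell by 0.84 (SE 0.13) and 0.82 (SE 0.11) on the log2 scale. Abcb1a moved least among those called, from 1260 to 1708 CPM (median 1448) in the other cells to 815 to 1679 CPM (median 1238) in arterial cells, a log2 fold change of -0.35 (SE 0.11), lower in 10 of 12 libraries with an adjusted p of 0.0109 by edgeR. Abcc4 was not called, with a log2 fold change of -0.31 (95% interval -0.72 to 0.09) and an adjusted p of 0.368 by edgeR. The difference between genes in the size of these changes was not tested.

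**Figure D3:**
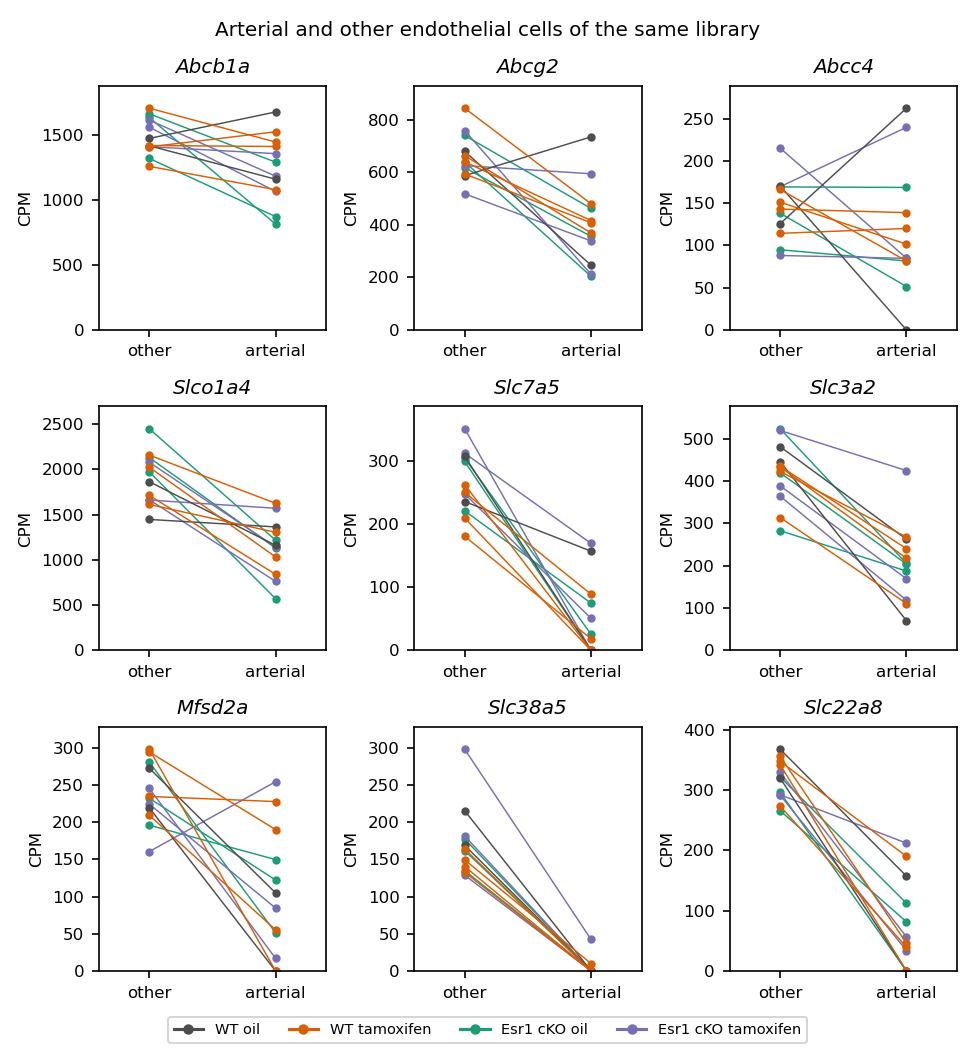
CPM of each transporter (1 panel each) in arterial and in other endothelial cells; lines join both values of a library and are coloured by group, for 12 libraries. Slc38a5 is at 0 in 10 arterial values, and the arterial values of Slc7a5 and Slc22a8 lie under every value of the other cells.

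Other barrier genes went both ways in arterial cells. Of the 57 genes of 5 lists (further ABC transporters, solute carriers, transcytosis and caveolae, junctions, and Wnt and barrier programme), 41 were tested, of which 13 were lower and 6 higher by edgeR, with a median log2 fold change of -0.14 beside -0.04 over all genes. Lower were the lactate carrier Slc16a1 (-2.70), the transferrin receptor Tfrc (-2.31), Slco2b1 (-1.76), the cationic amino acid carrier Slc7a1 (-1.65), the iron exporter Slc40a1 (-1.40), Slc38a3 (-1.32) and the thiamine carrier Slc19a3 (-1.18). The zinc carrier Slc39a10 was lower as well (-0.85). Higher were Reck, of Wnt7 signaling (1.5), and the arterial factor Sox17 (0.93). Of the 14 solute carriers tested 8 were lower and 1 higher, and of the 6 transcytosis and caveolae genes 3 were higher and 1 lower. Markers of other cells also differed between the classes. The summed mural markers (12 of 12 found in both) ran from 879 to 3361 CPM in arterial and 4087 to 9277 CPM in other endothelial cells. Red blood cell markers ran from 81.5 to 29348 CPM (4 of 5, Alas2 at 0) and from 6219 to 38139 CPM. With sub-clusters named for other cell types left out, 8 members were again called.

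Other sub-clusters are given as levels, with no test. Of the 7159 endothelial cells, 2148 lay in sub-clusters that carried the names of other cell types (mural, fibroblast, red blood cell and astrocyte). In the venous sub-cluster (473 cells, 9 of 10 venous markers) Slc38a5 was at 560 ± 176 CPM (15 libraries), above the 176 ± 65 and 196 ± 61 CPM of the larger unnamed sub-clusters (16 libraries each). Mfsd2a had the reverse order, with 181 ± 84 CPM in venous cells and 387 ± 68 and 361 ± 106 CPM in the unnamed ones. Abcb1a was at 1905 ± 412 CPM in venous cells and 1841 ± 212 and 1909 ± 185 CPM in the unnamed ones, within an SD. The unnamed sub-clusters held 2568 and 1546 cells, and the latter was led by Rgcc and Apold1. Low levels of Slc38a5, Slc7a5 and Slc22a8 were not particular to the arterial sub-cluster. In the sub-cluster of 537 cells led by Acta2, Myh11 and Dcn (15 libraries), which held 9 of 11 fibroblast and 9 of 12 mural markers, Slc38a5 was at 14.5 ± 26.9 CPM, Slc7a5 at 22.2 ± 20.2 CPM and Slc22a8 at 94.5 ± 61.4 CPM. Abcb1a was at 803 ± 138 CPM and Slco1a4 at 763 ± 256 CPM there.

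Plvap codes for the diaphragm protein of fenestrated endothelium, as in the median eminence, where the barrier is open. Cells with a Plvap UMI numbered 76 (median 1038.5 UMIs), against 7083 without (median 731 UMIs). In the 8 libraries with at least 5 such cells, 6 of the 8 members tested were lower in Plvap-positive cells by edgeR, with Plvap left out of the fit, where 8.03% of 1382 genes were called. Abcb1a ran from 0 to 993 CPM (median 436) with Plvap and from 1311 to 1697 CPM without, classes that did not overlap, as for 2.1% of the genes tested. Its log2 fold change was -1.81 (SE 0.31, adjusted p 0.000325 by edgeR). Slc22a8 (-1.85, SE 0.53), Slco1a4 (-1.76, SE 0.35), Mfsd2a (-1.65, SE 0.48) and Slc7a5 (-1.55, SE 0.46) were called as well, as was Abcg2 (-0.87, SE 0.27, adjusted p 0.0498 by edgeR). Slc38a5 (-1.85, SE 0.68, adjusted p 0.107 by edgeR) and Slc3a2 (-0.52, SE 0.35, adjusted p 0.476) were not called, and Abcc4 did not pass the filter on low counts.

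These Plvap calls rest on few UMIs, from 5 of Slc38a5 to 77 of Slco1a4. Here too a gene could pass the filter through the cells without Plvap alone. With Plvap, the members tested were at 0 in 1 (Abcb1a and Abcg2) to 7 (Slc38a5) of the 8 libraries. They therefore passed the filter through the cells without Plvap, where they were high, so their calls are a description. Of the members tested, only Abcb1a and Slco1a4 were called in all 13 of their alternative settings. Without WT oil replicate 2, WT tamoxifen replicate 3 or Esr1 cKO oil replicate 3 the calls numbered 3, and without Esr1 cKO oil replicate 2 or WT tamoxifen replicate 4 they numbered 2. Without Esr1 cKO tamoxifen replicate 3, a library that stands apart, the calls numbered 4, and without either of the remaining ones they numbered 7. Of the 57 other barrier genes 25 were tested, 7 were lower and none higher by edgeR, a median of -0.85 beside -0.12 over all genes. They were Slc38a3 (-2.08), Slco1c1 (-1.90), the glucose carrier Slc2a1 (-1.75), Foxq1 (-1.63), Cldn5 (-1.58), Tfrc (-1.50) and Lef1 (-1.37). The summed endothelial markers were also lower, from 9528 to 15256 CPM (median 10771) with and 14207 to 16491 CPM (median 15024) without Plvap. Arterial markers ran from 1010 to 15061 CPM (median 2255) with and 1393 to 5547 CPM (median 3073) without Plvap. Red blood cell markers ran from 0 to 78586 CPM with and 10081 to 34715 CPM without Plvap. The part of these differences in the result was not tested. In the fenestrated sub-cluster of 67 cells, 8 UMIs of Abcb1a, 11 of Slco1a4, 3 of Slc7a5 and none of Mfsd2a or Slc38a5 were found. It also held 33 UMIs of Abcg2, 24 of Slc3a2, 5 of Abcc4 and 2 of Slc22a8. With all libraries summed, Abcg2 was at 396, Slc3a2 at 288, Abcb1a at 96 and Slco1a4 at 132 CPM there. In the largest unnamed sub-cluster these were at 830, 554, 1875 and 2577 CPM, in that order.

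The study asked whether tamoxifen changes gene expression in the hypothalamus and preoptic area and whether this needs estrogen receptor alpha in cells of the Nkx2-1 lineage. In endothelial cells no member was called in any of the 6 contrasts of the groups by edgeR, nor by DESeq2. The same was true of all 9214 genes tested with edgeR (0% called in each contrast), and DESeq2 called 1 of these genes, no member, in Esr1 cKO against WT under oil. The paper compared single cells by a Wilcoxon test and reported tamoxifen-regulated genes in various cell types, most in neurons and ependymal cells. By gene set enrichment it also reported that tamoxifen affected a set for endothelial barrier establishment in WT but not Esr1 cKO endothelial cells. The fits here compare mice and test no gene set, so they do not repeat those tests. The widest 95% intervals over the members reach 1.86-fold for tamoxifen in WT mice, 1.73-fold for tamoxifen in Esr1 cKO mice, 1.74-fold for genotype under oil, 1.84-fold for genotype under tamoxifen, 1.37-fold for genotype over both treatments and 2.68-fold for the interaction.

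Slc38a5 was the member whose WT groups did not overlap. It was at 187, 204 and 162 CPM in WT oil, and at 129, 142, 138, 142 and 131 CPM in WT tamoxifen mice, so every tamoxifen library lay under every oil library, as for 3.62% of all genes. The log2 fold change was -0.44 (SE 0.22, 95% interval -0.90 to 0.02), with an unadjusted p of 0.0609 and an adjusted p of 0.9995 by edgeR. In Esr1 cKO mice it was at 150.3, 165, 152 and 123 CPM under oil and at 191, 282, 168 and 114 CPM under tamoxifen, a log2 fold change of 0.35 (SE 0.21). These groups overlapped, and replicate 2 of the tamoxifen group was the highest of the 16 libraries. The interaction of genotype and tamoxifen was 0.79 on the log2 scale (SE 0.30, 95% interval 0.15 to 1.42), with an unadjusted p of 0.0177 and an adjusted p of 0.960 by edgeR. With successive fours of the library numbers in the sample titles as a block, the log2 fold change was -0.27 for tamoxifen in WT mice and 0.58 for the interaction. Venous markers, which mark the cells with the highest Slc38a5, had summed levels of 746 to 826 CPM in WT oil, 679 to 1105 CPM in WT tamoxifen, 888 to 1237 CPM in Esr1 cKO oil and 931 to 3181 CPM in Esr1 cKO tamoxifen mice, and their part in these values was not tested.

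Slco1a4 was the other member whose groups were apart in 1 comparison. It was at 1529.7, 1825 and 1444 CPM in WT oil and at 2074, 1875, 2068 and 2341 CPM in Esr1 cKO oil mice, which did not overlap, as for 5.72% of all genes. The log2 fold change was 0.40 (SE 0.15), with an unadjusted p of 0.0168 and an adjusted p of 0.929 by edgeR. Under tamoxifen the values were 1687, 1985, 2112, 1890.5 and 1591 CPM in WT and 1774, 1655, 1600.5 and 1970.5 CPM in Esr1 cKO mice, which overlapped. The interaction was -0.46 (SE 0.20, unadjusted p 0.0317, adjusted p 0.960 by edgeR). No member was apart between the tamoxifen and oil groups of Esr1 cKO mice (2.24% of all genes were) or between the genotypes under tamoxifen (1.2% of all genes were).

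**Figure D4:**
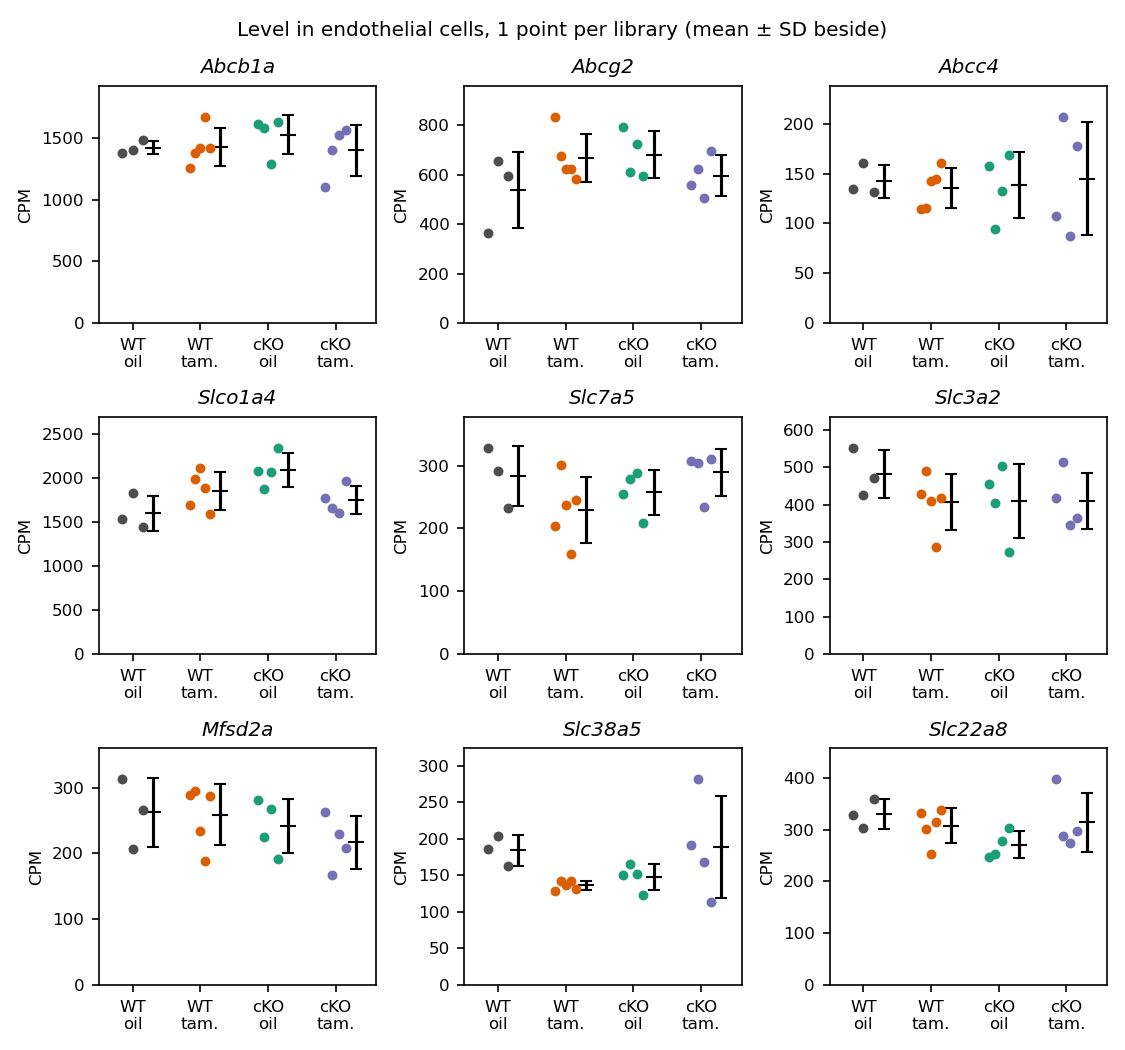
CPM in endothelial cells (vertical axis, from 0) for each library, by group (tam., tamoxifen; cKO, Esr1 cKO), 1 panel per transporter, with mean ± SD beside the points (n = 3, 5, 4 and 4). The 5 WT tamoxifen points of Slc38a5 (129 to 142 CPM) lie under the 3 WT oil points (162 to 204 CPM), and the groups of most panels overlap.

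The other members overlapped between groups. Abcb1a was at a mean of 1423 ± 54 CPM in WT oil, 1429 ± 152 CPM in WT tamoxifen, 1529 ± 159 CPM in Esr1 cKO oil and 1401 ± 209 CPM in Esr1 cKO tamoxifen mice. Tamoxifen changed it by 0.00 on the log2 scale in WT mice, with a 95% interval of -0.32 to 0.33. Abcg2 was at 366, 656 and 593 CPM in WT oil and at 833, 676, 620.5, 624 and 581 CPM in WT tamoxifen mice, a log2 fold change of 0.28 (95% interval -0.12 to 0.67). Abcc4 ranged from 87.8 to 207 CPM over the 16 libraries. The amino acid carrier chains had log2 fold changes under tamoxifen in WT mice of -0.30 (SE 0.20) for Slc7a5 and -0.25 (SE 0.21) for Slc3a2, neither called. Mfsd2a ranged from 167 to 313 CPM and Slc22a8 from 248 to 398 CPM. Over the members the median log2 fold change was -0.07 for tamoxifen in WT mice, beside 0.02 over all genes, and 0.01 in Esr1 cKO mice, beside -0.02.

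**Figure D5:**
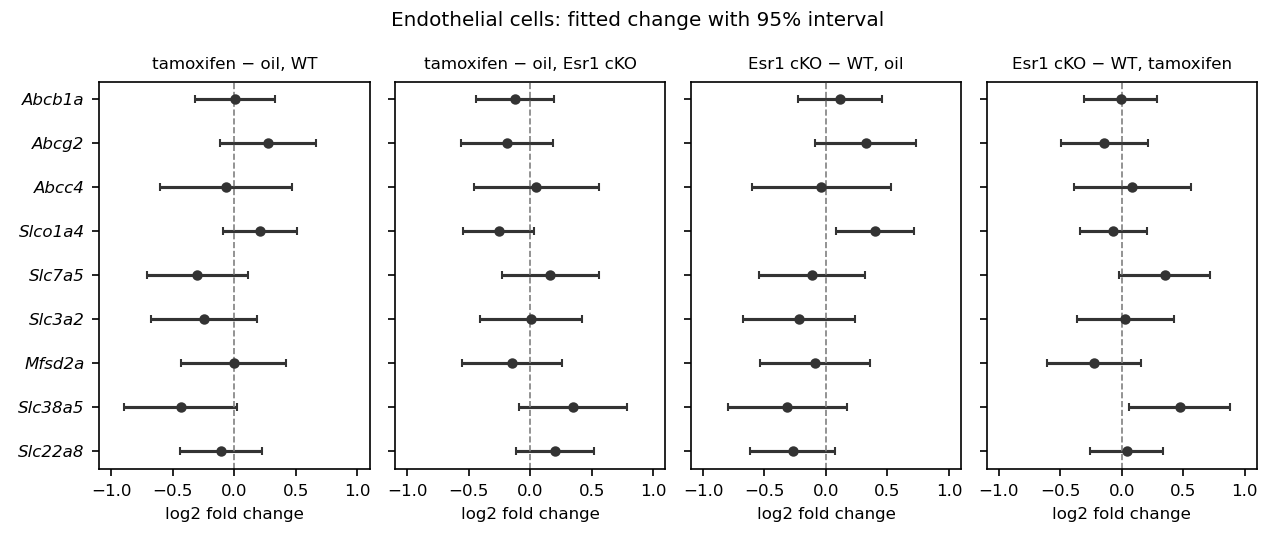
Fitted log2 fold change (horizontal axis) of each transporter in endothelial cells with its 95% interval, for tamoxifen against oil in each genotype and for Esr1 cKO against WT mice under each treatment. Intervals of Slco1a4 under oil (0.08 to 0.71) and Slc38a5 under tamoxifen (0.06 to 0.88) in the genotype panels exclude 0 before adjustment, and no gene passed adjustment.

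At an unadjusted p under 0.05, the interaction held 2 of the 9 members in endothelial cells (Slc38a5 and Slco1a4), beside 4.79% of the 9214 genes tested. Genotype under oil held 1 (Slco1a4), beside 5.2% of all genes, and genotype under tamoxifen 1 (Slc38a5), beside 3.14%. Tamoxifen in WT mice, tamoxifen in Esr1 cKO mice and genotype over both treatments held 0, beside 3.26%, 3.41% and 3.98%. With successive fours of library numbers as a block, the members at such a p numbered 0 for the interaction, 1 for genotype under oil and 0 for genotype under tamoxifen. The 57 other barrier genes, of which 55 were tested, held none called by edgeR in any contrast. Genotype under oil had 9 of the 55 at an unadjusted p under 0.05, against the same 5.2% of all genes, and the other contrasts had 0 to 5. In the other 8 cell types together, 26 fits of a member were made per contrast and none was called by edgeR. Of all genes in these types, 0% were called in each contrast except Esr1 cKO against WT under tamoxifen (0.00179%) and over both treatments (0.00359%). At an unadjusted p under 0.05 stood 1 of the 26 fits for tamoxifen in WT mice, for genotype under oil and for the interaction, and 0 in the other contrasts. Each was Abcb1a in microglia, shown here for that reason. It was at 9.3, 14.8 and 11.2 CPM in WT oil and at 20.1 to 65.8 CPM in WT tamoxifen mice, from 1 to 27 UMIs per library, with an unadjusted p of 0.0176 and an adjusted p of 0.9996 by edgeR. The share of microglial genes whose WT groups did not overlap was not computed. The log2 fold change of Abcb1a in microglia for genotype under oil was 1.36 (unadjusted p 0.0377, adjusted p 0.777 by edgeR), and the interaction was -1.81 (unadjusted p 0.0265, adjusted p 0.817 by edgeR). At an unadjusted p under 0.05 stood 4.16% of the 5936 genes tested in microglia for tamoxifen in WT mice, 6.1% for genotype under oil and 5.93% for the interaction. Endothelial markers in microglia ran from 0.511% to 6.05% of their endothelial level, and the part of free RNA in the microglial Abcb1a UMIs was not tested.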

How the data were processed

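UMI counts per gene and cell barcode were deposited by the authors, 1 table per library. The submitters' processing notes name STAR 2.6, Seurat 3.6.1 and mm10. The paper gives 3.6.1 as the version of R and a different version for Seurat. Whether strand was used in counting is not given in the sources used here. Cells with over 200 and under 4000 genes and under 15% mitochondrial UMIs were kept. They were clustered with Seurat 5.3.0, leaving the members and 4 near copies out of the genes used, and clusters were named from marker lists. Doublets (476) were called with Scrublet in scanpy 1.11.5 and removed only as an alternative.

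For each cell type, counts were summed within a library and tested with edgeR 4.0.16 (quasi-likelihood, TMM, filterByExpr, all 4 groups in 1 fit, Benjamini-Hochberg over all genes, threshold 0.05), with DESeq2 1.42.0 as an alternative. Arterial and Plvap comparisons had the library as a block. Shares of cells had 95% Clopper-Pearson intervals, which cover counting error only. Each library was 1 mouse. The members, gene lists and tests were chosen with earlier results of these data known. All members were named, the 3 genes most like each by correlation were ranked, and of the other barrier genes those called with the largest changes were named. In simulated counts for tamoxifen in WT mice (8875 genes), 17 of 98 genes changed 2-fold and 93 of 98 changed 4-fold were recovered. The changed genes included genes of low counts and had a single fixed dispersion, so the rate for the members was not measured.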

Additional observations from a re-analysis of the deposited data

Results flagged for a closer look

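In 27 groups of 4 or 5 libraries (each member in endothelial cells of 3 groups), 2 held a library far from the others by Dixon's criterion, which flags a share of groups by chance. Abcb1a was at 1293 CPM in Esr1 cKO oil replicate 3, where the nearest other library of the group was at 1579 CPM. Slc7a5 was at 234 CPM in Esr1 cKO tamoxifen replicate 3, where the nearest other was at 304 CPM, and this library is 1 of those cut at 100 genes per barcode. The groups of WT oil mice (n = 3) were not tested.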

How the results depend on the processing

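No member was called in any of the 6 contrasts of the groups under 29 or 30 settings each, with 0 to 0 called when each library was left out, and 0 to 2 members at an unadjusted p under 0.05. Of 1548 single-gene comparisons none changed its call, and 73 changed sign. Between arterial and other endothelial cells 8 to 9 members were called (8 to 8 with a library left out). With the Plvap classes 2 to 9 were called (2 to 7 with a library left out), 9 without the filter on low counts, 5 without cells of shared barcodes, and 4 without both libraries that stand apart or without sub-clusters of other cell types, where 5 members were tested. The 9 include Abcc4 and Slc38a5, which had 8 and 5 UMIs with Plvap. The share of 8.03% of all genes is that of the main fit, and shares under the alternatives are not given here, so these counts show only how the calls vary. At least 2 Plvap UMIs per cell could not be fitted, since too few libraries were left. With endothelial cells taken by a marker gate, the log2 ratio to other cells was 4.72 for Abcb1a, 4.15 for Abcg2, 5.20 for Slco1a4, 5.48 for Slc38a5 and 4.45 for Slc22a8, and with under 5% mitochondrial UMIs it was 5.92 for Slc22a8. With the gate, all cells that failed it counted as other cells, also those of the endothelial cluster. Slco1a4 in other cells was at 9.18 CPM in the main setting and 62.3 CPM with the gate. In endothelial cells it was at 1839 and 2181 CPM. The cause of the changes in these ratios was not tested. Thinned to 500 UMIs, the share of endothelial cells with a UMI was 50.5% for Abcb1a, 26.6% for Abcg2, 6.53% for Abcc4, 58.5% for Slco1a4, 13.2% for Slc7a5, 19.5% for Slc3a2, 12.1% for Mfsd2a, 6.72% for Slc38a5 and 15.1% for Slc22a8. These shares are of 4959 endothelial cells, and 2200 that were too shallow to thin were left out. No paired analysis was possible because the labels do not number replicates within a group. The paper ran the groups in parallel over 4 days with 4 mice per day, but the labels do not tie libraries to days. By library number, 1 to 4, 5 to 8 and 9 to 12 each hold every group. Numbers 13 to 16 are the libraries named above that share 303 to 359 barcodes in each pair. They hold no WT oil library. In a fit with successive fours of library numbers as a block, no member was called in any contrast, and 0, 0, 0, 1, 0 and 0 members were at an unadjusted p under 0.05 for tamoxifen in WT, tamoxifen in Esr1 cKO, the interaction, genotype under oil, genotype under tamoxifen and genotype over both. Of the group contrasts, the simulated counts covered only tamoxifen in WT mice (17 of 98 changes of 2-fold recovered). In simulated counts for arterial against other endothelial cells 73 of 91 changes of 2-fold were recovered, and for the Plvap classes 48 of 87.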
